A study of Homo sapiens with 6 samples.

Results

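TFPI2 and 8 further genes of the coagulation and plasminogen system (TFPI, F3, PLAU, PLAUR, PLAT, THBD, F2R and F2RL1) were read from a table of 58735 genes by their gene names. All 9 passed the filter on low counts, as did 15754 genes in all. The set was chosen by the response of TFPI2 in the same comparison, since TFPI2 was already known to be the upregulated gene with the smallest p after IL17D itself, and the other 8 genes were placed beside it for their roles with those results at hand. The differences of these 9 genes between the groups are therefore given as a description, without a test.

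RNA was sequenced from A549 cells, a human lung adenocarcinoma cell line, transduced with a lentiviral vector carrying IL17D (3 libraries) or with the empty vector (control, 3 libraries), all grown in RPMI1640 medium with FBS. The vector drove the IL17D open reading frame from a human PGK promoter together with GFP. Whether the libraries of a group came from separate transductions, cultures or clones is not given in the sources used here, so the spread between them may be technical. The question was which genes of the cells responded to IL17D.

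The counts on genes totalled 14319398 to 16521021 per library. Levels are given as CPM, counts scaled to a common library size. IL17D itself was at 1.61 ± 0.450 CPM in the control libraries and at 1911 ± 40.6 CPM in those labelled as overexpressing it (SD, n = 3 each). The keratins KRT7, KRT8 and KRT18 marked the cells as epithelial, with 1650, 7648 and 3591 CPM in control cells, whereas EPCAM (1.05 CPM) and KRT19 (0.370 CPM) were nearly absent. Of the 6 epithelial markers, CDH1 (E-cadherin) passed the test and fell from 43.4 ± 2.65 to 35.7 ± 3.32 CPM (SD, n = 3 each), with an adjusted p of 0.031 by the quasi-likelihood test of edgeR, adjusted after Benjamini and Hochberg over all tested genes. That p was 0.077 and 0.14 without control replicate 2 or 3, 0.27 and 0.081 without IL17D replicate 1 or 2, and 0.055 with DESeq2, and the part of this shift in the results below was not tested. Because THBD, TFPI and PLAT are well known from endothelium, 6 endothelial markers were summed. They reached 1.12 to 1.97 CPM in control libraries and 0.561 to 1.58 CPM in IL17D-overexpressing libraries, with KDR and TEK at 0 in all 6 libraries. Summed levels of 5 alveolar type II markers were 1.62 to 3.08 CPM and 1.03 to 1.58 CPM, and those of 6 fibroblast markers, nearly all COL1A1, were 22.7 to 25.2 CPM and 19.6 to 24.4 CPM, in control and IL17D-overexpressing libraries. Those of 6 blood cell markers were 0.746 to 1.42 CPM and 0.730 to 1.64 CPM. Since these were bulk samples, fewer cells of a type and less RNA per cell cannot be told apart.

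Coagulation starts when tissue factor, encoded by F3, binds factor VII on a cell surface and sets off the cascade that makes thrombin. TFPI, an inhibitor built of Kunitz domains, blocks this complex, and thrombomodulin (THBD) turns thrombin toward activating the anticoagulant protein C. The plasminogen activators urokinase (PLAU) and tissue-type activator (PLAT) cut plasminogen into plasmin, a protease that dissolves fibrin and digests matrix, and the receptor PLAUR holds urokinase at the membrane. TFPI2 is a secreted Kunitz inhibitor of plasmin, trypsin and related serine proteases that is deposited in the extracellular matrix, and its promoter is known to be silenced by methylation in several cancers. The receptors F2R and F2RL1 (PAR1 and PAR2) are switched on when proteases cut them, F2R mainly by thrombin and F2RL1 by trypsin-like proteases.

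The promoters of TFPI2 and of GNG11, its neighbor on chromosome 7, are shown because both genes were higher in IL17D-overexpressing cells, and short stretches of F3 and PLAUR because they hold an AP-1 motif that the TFPI2 window lacks. The sequences were taken from RefSeq (GRCh38.p14), are written 5′ to 3′ on the strand of the gene, and capitals mark motif matches. The first pair covers the 250 bases before the RefSeq start site. These are chr7:93890754-93891003 on the minus strand for TFPI2 and chr7:93921485-93921734 on the plus strand for GNG11. The annotation used for the counts starts these genes further upstream, at 93890991 and 93921699, so most of the TFPI2 stretch lies inside its annotated gene.
TFPI2: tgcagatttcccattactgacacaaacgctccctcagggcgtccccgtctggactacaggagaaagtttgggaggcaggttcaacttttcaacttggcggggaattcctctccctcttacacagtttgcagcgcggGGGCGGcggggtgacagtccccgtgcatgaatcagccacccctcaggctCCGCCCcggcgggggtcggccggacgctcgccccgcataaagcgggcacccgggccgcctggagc
GNG11: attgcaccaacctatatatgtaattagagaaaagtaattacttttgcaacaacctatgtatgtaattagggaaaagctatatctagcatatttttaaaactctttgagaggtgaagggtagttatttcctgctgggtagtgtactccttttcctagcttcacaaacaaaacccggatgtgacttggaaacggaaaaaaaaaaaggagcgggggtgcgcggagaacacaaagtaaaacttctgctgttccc
F3, AP-1 match: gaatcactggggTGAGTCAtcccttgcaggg
PLAUR, AP-1 match: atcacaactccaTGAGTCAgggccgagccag

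RefSeq windows from 250 bases before to 50 bases after a start site were at hand for 6 of the 9 genes, in 7 windows, as PLAU has a pair of start sites; TFPI2, TFPI, F3, PLAU, PLAUR and F2RL1 matched by symbol. Each window was searched on both strands for 6 motifs, none of which contains another. The capitals in TFPI2 are GC boxes (GGGCGG or its reverse complement CCGCCC) at positions -114 to -109 and -65 to -60 from the start. A GC box stood in the windows of 4 of these 6 genes and in 45.0% of all 35116 promoter windows. The AP-1 motif TGACTCA, written above as its reverse complement, stood in F3 at positions -210 to -204 and in PLAUR at positions -186 to -180, and in 4.95% of all windows. The TATA box motif TATAAA was found in F3 only as its reverse complement TTTATA, at positions -28 to -23, and on either strand in 11.5% of all windows. The CRE TGACGTCA (1.85% of all windows), the E-box CACGTG (7.26%) and the NF-kB motif (0.558%) were in none of the 7 windows. None of the 6 motifs was found in the GNG11 window. TFPI2 had 26 CpG dinucleotides in its window and GNG11 had 9, where the median of all windows was 14. The TFPI2 window thus held more CpG than 69.9% of all windows. DNA methylation was not measured here.

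In control cells TFPI2 was far above the other 8 genes. Levels were compared between genes as TPM, which divide the counts by the length of each gene's merged exons before scaling to a common total. TFPI2 had 535 ± 1.70 TPM (SD, n = 3), higher than 99.1% of all tested genes by the mean over the 6 libraries. PLAU followed with 87.8 ± 0.469 TPM, F2RL1 with 75.6 ± 2.68 TPM and F2R with 68.2 ± 5.31 TPM (SD, n = 3 each), so that urokinase and both receptors lay within a narrow range. PLAUR (16.4 ± 0.275 TPM) and TFPI (14.9 ± 0.406 TPM) formed the next step. THBD (3.55 ± 0.438 TPM), F3 (3.17 ± 0.741 TPM) and PLAT (1.49 ± 0.118 TPM) were lowest (SD, n = 3 each). Neighbors in this order did not overlap among the 3 control libraries, except THBD and F3. The order below TFPI2 depends on the length used, most of all for TFPI, whose merged exons add up to 11714 bases. With the median length of each gene's protein-coding transcripts (768.5 bases for TFPI), a choice made after the data were seen, TFPI moved from place 6 to place 2, PLAU from 2 to 5, PLAT from 9 to 7 and THBD from 7 to 9, F2R and F2RL1 stood at 3 and 4 and PLAUR at 6, while TFPI2 stayed at place 1 and F3 at place 8.

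**Figure D1:**
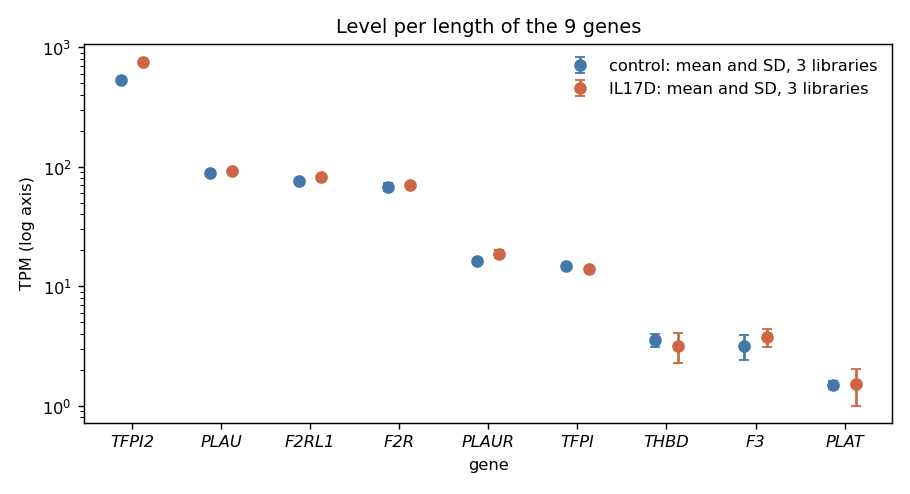
Level per length of the 9 genes in TPM on a log axis, with the mean and SD of the 3 control libraries (blue) and the 3 IL17D-overexpressing libraries (orange). TFPI2 lies at 535 TPM in control cells and 749 TPM in IL17D-overexpressing cells, and the lowest gene, PLAT, at 1.49 and 1.53 TPM.

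TFPI2 (ENSG00000105825, GRCh38 chromosome 7, 93885396 to 93890991, minus strand) was higher in each IL17D-overexpressing library than in any control library. Control replicates 1, 2 and 3 held 7014, 6240 and 6982 TFPI2 counts (432, 431 and 434 CPM). For the IL17D-overexpressing replicates the counts were 9941, 9911 and 8905 (604, 603 and 624 CPM). The control libraries thus lay within 3 CPM of each other, and the gap to the other group was many times the spread within either group. The means were 432 ± 1.52 and 610.4 ± 11.9 CPM (SD, n = 3 each), a log2 fold change of 0.50 (standard error 0.031), or 41.2% more. Leaving out any 1 library gave log2 fold changes from 0.48 to 0.51. Exons of GNGT1 and of the antisense gene AC002076.1, both on the opposite strand, cover 44 and 79 of the 2682 exon bases of TFPI2, and these genes had 6 and 13 counts over all 6 libraries.

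TFPI, the paralog that restrains tissue factor, did not go with TFPI2. It had 53.8, 50.7 and 52.9 CPM in control replicates 1, 2 and 3 and 50.8, 49.8 and 47.7 CPM in the IL17D-overexpressing replicates. The groups overlapped narrowly, through control replicate 2 and IL17D replicate 1. Its log2 fold change was -0.09 (standard error 0.060). Within each library, the level of TFPI2 per exon length was 35.0, 37.2 and 35.8 times that of TFPI in control cells and 51.9, 52.9 and 57.1 times in IL17D-overexpressing cells. These ratios rest on merged exon lengths, and with the median length of protein-coding transcripts the control levels were 449 CPM per kb for TFPI2 and 68.3 CPM per kb for TFPI, a far smaller ratio. The choice of length does not alter the comparison between libraries, in which the balance of the paralogs was higher for TFPI2 in every IL17D-overexpressing library.

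F3 and THBD, the membrane proteins that start and restrain thrombin formation, both had low counts. By mean TPM over the 6 libraries they stood above 22.4% and 21.9% of all tested genes. For F3, control replicates 1, 2 and 3 held 37, 50 and 40 counts, and the IL17D-overexpressing replicates 46, 65 and 44. Replicate 2 was the highest of each group, the groups overlapped, and the log2 fold change was 0.27 (standard error 0.24). THBD had 73, 55 and 79 counts in control cells and 77, 73 and 38 counts in IL17D-overexpressing cells. IL17D replicate 3 stood below the other libraries of both groups. The log2 fold change of THBD was -0.16 (standard error 0.21), and 0.05 without that library. F3 moved between 0.11 without IL17D replicate 2 and 0.46 without control replicate 2. The 95% intervals, given as a measure of precision and not as a test, were -0.22 to 0.75 for F3 and -0.58 to 0.26 for THBD. Both were wide and included 0. A rise as large as that of TFPI2 lay inside the interval of F3 and above that of THBD. A fall of that size lay inside the interval of THBD, which includes the low IL17D replicate 3.

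The urokinase arm was measured far better than the tissue-type activator. PLAU (chromosome 10, 73909177 to 73917497) had 77.9, 78.1 and 78.0 CPM in control replicates 1, 2 and 3 and 82.6, 78.4 and 85.6 CPM in the IL17D-overexpressing replicates. The groups did not overlap, although IL17D replicate 2 lay next to the control libraries, and the log2 fold change was 0.07 (standard error 0.050). Exons of C10orf55 on the opposite strand cover 31.1% of the exon bases of PLAU, with 77 counts over all 6 libraries, and whether reads were counted by strand is not given in the sources used here. PLAUR (chromosome 19, 43646095 to 43670547) had 22.3, 21.5 and 22.3 CPM in control cells and 27.3, 24.9 and 23.8 CPM in IL17D-overexpressing cells. All 3 IL17D-overexpressing libraries were higher, with a wider spread than in control cells, and the log2 fold change was 0.20 (standard error 0.085), the third largest in size among the 9 genes.

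PLAT had 49, 46 and 44 counts in control cells and 70, 42 and 34 counts in IL17D-overexpressing cells. IL17D replicate 1 was above and the other 2 were below all control libraries. Its log2 fold change was 0.05 (standard error 0.24), and -0.27 without IL17D replicate 1. The level of PLAU per exon length was 59.0 ± 4.53 times that of PLAT in control cells and 64.3 ± 18.9 times in IL17D-overexpressing cells (SD, n = 3 each), so urokinase was the main activator transcript in both groups.

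The receptors F2R (chromosome 5, 76716043 to 76735781) and F2RL1 (chromosome 5, 76818933 to 76835315) are neighboring genes. F2R had 76.4, 85.1 and 89.0 CPM in control cells and 84.6, 85.6 and 88.7 CPM in IL17D-overexpressing cells. The groups overlapped fully apart from the low control replicate 1, and the log2 fold change was 0.05 (standard error 0.053), or -0.01 without that replicate. F2RL1 had 65.5, 66.4 and 70.3 CPM in control cells and 73.7, 73.0 and 75.2 CPM in IL17D-overexpressing cells. Its groups did not overlap, and the log2 fold change was 0.13 (standard error 0.052).

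**Figure D2:**
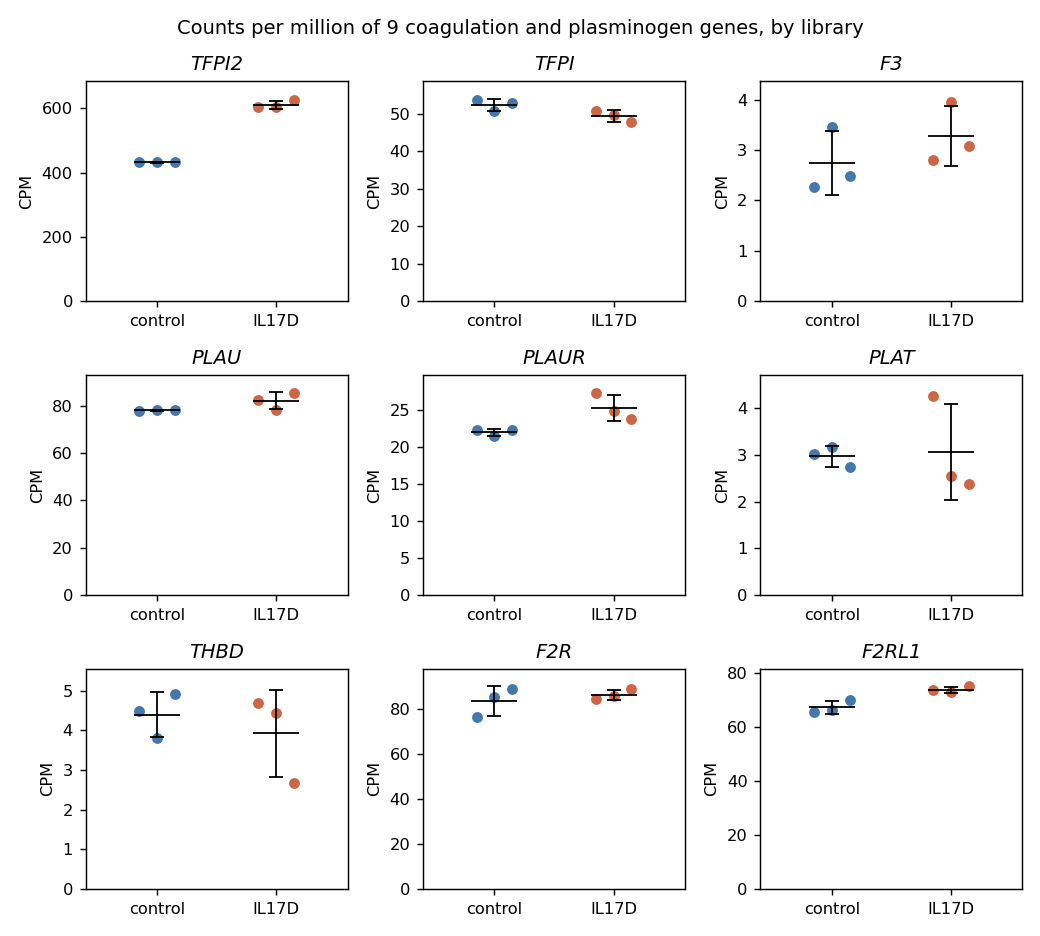
CPM of each of the 9 genes in every library, with each axis starting at 0. Points are libraries in the order of replicates 1 to 3, and black bars give the mean and SD of 3. The control points of TFPI2 sit at 431 to 434 CPM and the IL17D points at 603 to 624 CPM, while the groups of TFPI, F3, PLAT, THBD and F2R overlap.

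Over the 9 genes, 7 log2 fold changes were above 0 and 2 below, with a median of 0.0738, where the median of all tested genes was -0.00044. At the 0.05 threshold of edgeR 1 of the 9 genes, TFPI2, was called, where 1.58% of all tested genes were called. In 4 of the 9 genes (TFPI2, PLAU, PLAUR and F2RL1) all IL17D-overexpressing libraries were above all control libraries, which held for 7.48% of all tested genes. Nothing is read from these counts, since the genes were chosen with this comparison in view.

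The other genes of the system were taken from 7 lists, with none of the 9 genes among them. The lists were drawn up by function and without regard to how their genes moved, but with earlier results of these data known. Of 110 listed genes, 58 passed the filter on low counts, 19 had no count in any library, and 4 passed the test, all lower in IL17D-overexpressing cells. These 4 were ARRB2, SORL1, ITGB1 and SERPINE2, and they make 6.90% of the 58, where 0.908% of all tested genes were called lower and 0.673% higher. Over the 14 alternatives 1 to 5 listed genes were called lower, and these shares are given as a description. None was called higher by edgeR, and DESeq2 and limma voom each called 1 higher. At an unadjusted p under 0.05 in edgeR's test, 4 of the 58 were higher and 9 lower. The share of all tested genes at that threshold is not given, so nothing is read from these counts. The median log2 fold change of the 58 was -0.0278, with 23 above 0.

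ARRB2 encodes beta-arrestin 2, an adaptor that uncouples activated receptors from their G proteins and takes part in the internalization of F2RL1. It had 76.0, 70.2 and 70.5 CPM in control replicates 1, 2 and 3 and 59.9, 60.0 and 61.9 CPM in the IL17D-overexpressing replicates. All 3 IL17D-overexpressing libraries were lower, and ARRB2 fell by 0.25 on the log2 scale (95% interval -0.37 to -0.14, adjusted p = 0.0060 from edgeR's test with Benjamini-Hochberg adjustment). Without control replicate 1 its adjusted p was 0.073. It was 1 of 14 tested genes on the list of other protease-activated receptors and their coupling proteins, and the other 13 did not pass. The most abundant of those were RHOA, ARHGEF12 and GNA13, which carry the signal from these receptors to the cytoskeleton, with log2 fold changes of 0.00, -0.02 and 0.02.

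SERPINE2, or protease nexin 1, inhibits thrombin, urokinase and plasmin. It fell from 63.9 ± 2.01 to 55.0 ± 1.69 CPM (SD, n = 3 each), a log2 fold change of -0.21 (adjusted p = 0.039 from edgeR's test). All 3 IL17D-overexpressing libraries (57.0, 54.1 and 54.0 CPM) were below the control libraries (61.7, 65.7 and 64.3 CPM), yet the adjusted p rose above 0.05 when control replicate 2 (0.18), control replicate 3 (0.078) or IL17D replicate 1, 2 or 3 (0.068, 0.15 and 0.20) was left out, and with DESeq2 (0.060). The plasminogen list held 9 tested genes, of which the other 8 did not pass. Its most abundant genes bind plasminogen at the cell surface, namely ANXA2 and S100A10, which form a complex there, and ENO1. ANXA2 had 2736 ± 33.3 and 2613 ± 29.1 CPM (log2 fold change -0.07, adjusted p = 0.21 in edgeR's test and 0.036 with limma voom), ENO1 2718 ± 40.6 and 2627 ± 35.7 CPM (-0.05) and S100A10 660.3 ± 16.1 and 685 ± 27.2 CPM (0.05) in control and IL17D-overexpressing cells (SD, n = 3 each).

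Of the partners and clearance receptors of PLAUR, 2 of 12 tested genes were lower. SORL1, a sorting receptor that takes up urokinase and its complexes with inhibitors, had 18.3, 19.5 and 23.6 CPM in control cells and 13.3, 17.4 and 13.6 CPM with IL17D, giving a log2 fold change of -0.47 (95% interval -0.69 to -0.24, adjusted p = 0.016 from edgeR's test). Its groups were separate by a small margin, and the adjusted p was 0.15 without control replicate 3, 0.14 without IL17D replicate 1 and 0.13 without IL17D replicate 3. ITGB1, the integrin beta 1 chain, had 2168, 2167 and 2233 CPM in control cells and 2010, 2058 and 2039 CPM with IL17D, a small but narrowly measured log2 fold change of -0.11 (95% interval -0.16 to -0.05, adjusted p = 0.018 from edgeR's test). For ITGB1 the adjusted p was 0.056 without control replicate 3, 0.16 without IL17D replicate 1 and 0.13 without IL17D replicate 3. ITGA3 and ITGB5, the next most abundant, had log2 fold changes of 0.04 and -0.05 and did not pass.

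No gene passed edgeR's test on the remaining 4 lists, where 23 genes were tested and 2 were higher and 2 lower at an unadjusted p under 0.05. Among 21 coagulation factors and genes for their synthesis, 11 were tested. MCFD2 and LMAN1, which carry factors V and VIII out of the endoplasmic reticulum, and VKORC1L1, of the vitamin K cycle, were the most abundant, with log2 fold changes of 0.02, 0.01 and 0.08. The less abundant fibrinogen genes FGA, FGB and FGG had log2 fold changes of 0.36, 0.46 and 0.58. Their 95% intervals were 0.12 to 0.61, -0.03 to 0.95 and -0.09 to 1.25. None of them passed (adjusted p = 0.16, 0.48 and 0.53 from edgeR's test), and only for FGA did the groups not overlap. Of the 11 tested genes, 6 had log2 fold changes above 0. Of 13 anticoagulant genes 5 were tested, led by ANXA5, which covers procoagulant phospholipid (269 ± 3.40 and 251 ± 3.37 CPM, log2 fold change -0.10, adjusted p = 0.21 from edgeR's test). PROCR, the protein C receptor, and PROS1, its cofactor protein S, had log2 fold changes of -0.08 and 0.02. Of 16 cell-surface and trypsin-like serine proteases, only PRSS3 was tested, at 1.19 ± 0.334 and 1.01 ± 0.190 CPM (SD, n = 3 each) and its log2 fold change was -0.24 (standard error 0.38), and it shares sequence with other trypsinogen genes. Of 16 further genes with a Kunitz domain 6 were tested. The most abundant were the amyloid precursor APP (569 ± 10.8 and 543 ± 6.34 CPM, SD, n = 3 each), its relative APLP2 and SPINT2, an inhibitor of membrane serine proteases, with log2 fold changes of -0.07, -0.01 and 0.00. The 95% interval for SPINT2 was -0.08 to 0.08 and that for APLP2 -0.08 to 0.06, both well below the difference of TFPI2. AMBP, a tested Kunitz gene with few counts, had 0.912 ± 0.361 CPM in control and 1.62 ± 0.286 CPM in IL17D-overexpressing cells (SD, n = 3 each). Its log2 fold change of 0.84 (95% interval 0.1 to 1.59) was larger than that of TFPI2. The groups of AMBP did not overlap, but it did not pass (adjusted p = 0.35 from edgeR's test). Of the 6 tested Kunitz genes, 2 had log2 fold changes above 0.

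**Figure D3:**
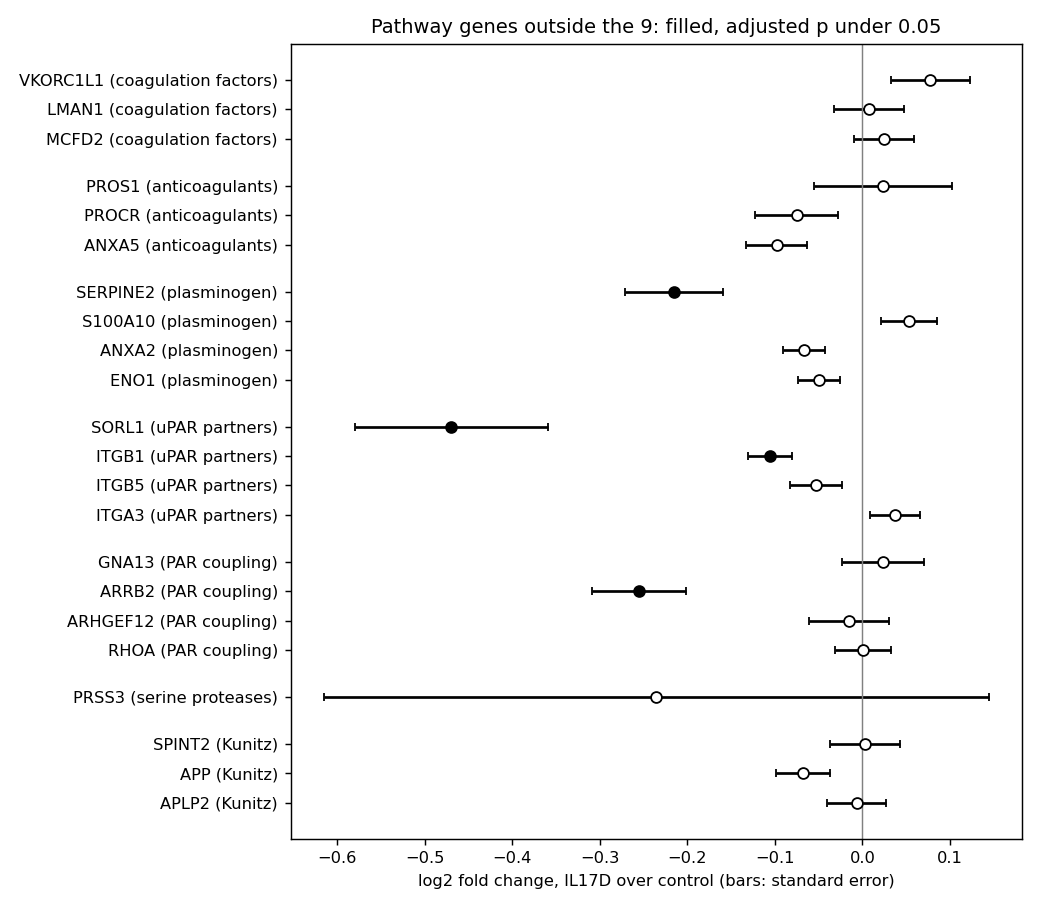
Log2 fold change, IL17D-overexpressing over control cells, with the standard error, of the 22 genes named from the 7 lists. Filled points mark the genes that passed the edgeR threshold of 0.05, namely SERPINE2 (-0.21), SORL1 (-0.47), ITGB1 (-0.11) and ARRB2 (-0.25), all left of 0.

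Around TFPI2, 18 other genes of the table lie within 500 kb, of which 3 had enough counts to be tested. GNG11, a gamma subunit of G proteins that couple to receptors at the membrane, starts on the opposite strand 30.7 kb from TFPI2. Its counts were 1718, 1441 and 1724 over control replicates 1 to 3, against 2056, 2017 and 1785 with IL17D. In CPM these are 106, 99.6 and 107 against 125, 123 and 125, so all 3 IL17D-overexpressing libraries were higher. GNG11 rose by 0.25 on the log2 scale (95% interval 0.16 to 0.34, adjusted p = 0.00062 from edgeR's test with Benjamini-Hochberg adjustment), and it passed in each of the 14 alternatives, with adjusted p from 4.2e-05 to 0.013. No other gene overlaps GNG11. BET1, which serves transport from the endoplasmic reticulum to the Golgi and lies 71.8 kb from TFPI2, had 28.2 ± 1.10 and 25.9 ± 0.769 CPM (SD, n = 3 each), with a log2 fold change of -0.12 (95% interval -0.28 to 0.04, adjusted p = 0.61 from edgeR's test). All 3 IL17D-overexpressing libraries were below all control libraries for BET1, although it did not pass. The third, AC006378.2, had 3 to 18 counts per library and a log2 fold change of -0.81 (standard error 0.50), too few counts to tell. Among the untested neighbors, the processed pseudogene AC002075.1, singled out after its values were seen and lying 107 kb away, held 1 count in each control library, against 9, 7 and 4 with IL17D.

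**Figure D4:**
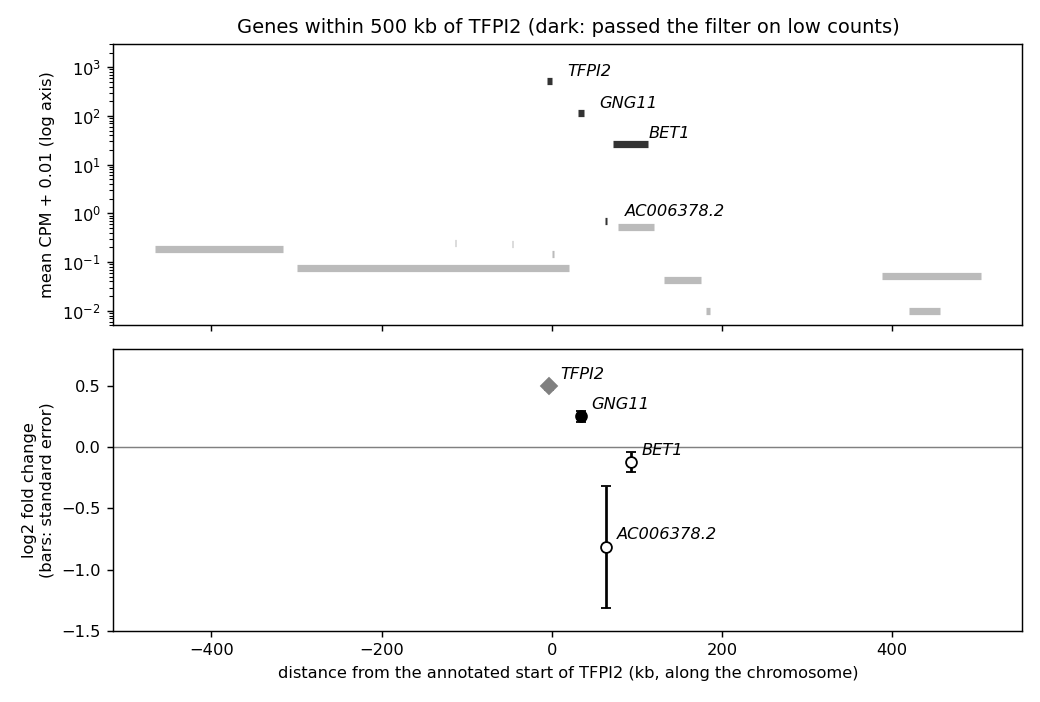
Genes within 500 kb of TFPI2, placed by their distance from its start in kb along the chromosome. The upper panel gives the mean CPM plus 0.01 on a log axis, with dark bars for genes that passed the filter on low counts. The lower panel gives the log2 fold change with its standard error, with TFPI2 (0.50) as a grey diamond without a test, GNG11 (0.25), which passed edgeR's test, as a filled circle, and BET1 (-0.12) and AC006378.2 (-0.81), which did not, as open circles.

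The genes most like TFPI2 across the 6 libraries were found by the root mean square difference of log2 CPM after subtracting each gene's mean, over 9740 genes with a mean of at least 10 CPM. The closest was NR4A1, an early response nuclear receptor, at 0.0357, followed by NEFL, the light neurofilament chain, at 0.0434, the glucose transporter SLC2A3 at 0.0501, the lincRNA AC102953.2 at 0.0571 and FAM83A at 0.0607, where the median of all these genes was 0.257. SLC2A3 had 218.5, 226 and 222 CPM in control cells and 299.7, 314 and 295 CPM in IL17D-overexpressing cells. Because the measure follows the difference between the groups, the likeness describes these libraries and carries no test. The log2 fold changes of the 5 genes ran from 0.45 to 0.51, beside 0.50 for TFPI2. None of the other 8 coagulation and plasminogen genes was among them, but F3, PLAT and THBD lay below 10 CPM and were not compared. The rest had log2 fold changes of -0.09 to 0.20, which by this measure sets them apart, so nothing is read from their absence.

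**Figure D5:**
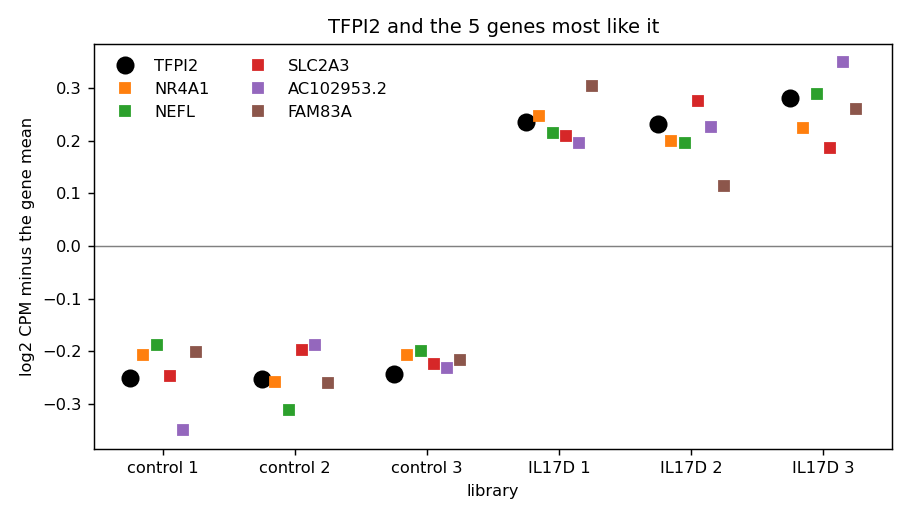
Log2 CPM minus the mean of each gene in every library for TFPI2 (large black points) and the 5 genes most like it (squares). In all 6 genes the 3 control libraries lie below 0 and the 3 IL17D-overexpressing libraries above 0, with the smallest root mean square difference, 0.0357, for NR4A1.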

How the data were processed

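Gene counts of 6 A549 libraries were used, 3 with IL17D and 3 with the empty vector. The authors deposited raw counts per gene in 1 table, without normalization; per the submitters' processing notes, hg38 and Bowtie2 were used, and the counting tool is not given in the sources used here. All gene coordinates and lengths in the table equal those of GENCODE release 29, the lengths being merged exons. Raw reads were not processed again, and columns were matched to samples by title.

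The packages edgeR 4.0.16, DESeq2 1.42.0 and limma 3.58.1 were used under R 4.3.3. Genes were kept by filterByExpr, TMM factors scaled the libraries, and IL17D was compared with empty vector across all 15754 kept genes with edgeR's quasi-likelihood test without covariates, two-sided, with Benjamini-Hochberg adjustment and a threshold of 0.05. CPM use TMM library sizes. Standard errors were taken from the log2 fold change and its F statistic. A count of 0 in a library allows up to 3 counts, or 0.182 to 0.210 CPM, for counting error only. The steps were tested on simulated data.

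The members and lists were chosen with earlier results of these data known. Named genes are the 9 members, list genes that passed or are among the 3 most abundant of their list, tested genes within 500 kb of TFPI2, and the 5 genes most like TFPI2. The list genes AMBP, FGA, FGB and FGG were named as well, after their values were seen. Protein sequences were not used here. A result for 1 gene of the lists is not reported here. Alternatives were other scalings (DESeq2 size factors, total counts, upper quartile), DESeq2's Wald test, limma voom, other filters (all genes with a count, or only those with 10 or more in each of the libraries), a replicate block, and dropping libraries 1 at a time.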

Additional observations from a re-analysis of the deposited data

How the results depend on the processing

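The log2 fold change of TFPI2, given without a test, stayed between 0.48 and 0.51 over all 14 alternatives. That of GNG11 stayed between 0.22 and 0.27 and passed the threshold in each. With the replicate block the value of TFPI2 was 0.50 and GNG11 had an adjusted p of 0.00016, and 115 genes were called higher and 157 lower among all genes (106 and 143 without the block). Deviations of same-numbered libraries correlated at 0.0692, -0.110 and -0.0667 over 9741 genes, and those of differently numbered libraries at -0.145 to 0.199. The numbers thus showed no sign of pairing the samples, although such values cannot exclude it. Of the pathway genes, 0 were called higher by edgeR and 1 by DESeq2 and by limma voom, and the number called lower was 4 by edgeR, 3 by DESeq2 (without SERPINE2) and 5 by limma voom (with ANXA2), with 1 to 3 when 1 library was left out (1 without control replicate 3, IL17D replicate 1 or IL17D replicate 3). Leaving out 1 library gave 69 to 129 genes called higher and 76 to 138 called lower among all genes, the lowest of both without IL17D replicate 3, with 79 lower without IL17D replicate 1 and 95 without control replicate 2. The cause of these losses was not tested. The other scalings moved the median log2 fold change of all genes by between -0.00653 and 0.00151. F3, THBD and PLAT had 34 to 79 counts per library and standard errors of 0.21 to 0.24, and what share of their spread is counting error was not tested.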
